A study of Glycine max with 4 samples.

Results

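The 3 genes described here are the nitrate reductases of soybean (Glycine max) roots, chosen by identifier from a list of nitrate reductase genes: Glyma.06G109200.Wm82.a2.v1, Glyma.13G084000.Wm82.a2.v1 and Glyma.14G164900.Wm82.a2.v1. They are 3 of the 47973 genes listed in at least 1 library. The rule that chose them uses identifiers, not measured values, but it was set with earlier results of these data known. The deposited tables hold identifiers without gene names and the reference table used here matched 0 of them, so the assignment of these identifiers to nitrate reductase rests on that list and was not checked against sequence. The identifiers belong to the Wm82.a2.v1 annotation of the cultivar Williams 82 and carry the chromosome numbers 6, 13 and 14. Transcript lengths are listed as 3133, 2997 and 2832 bases, with 1 transcript each. The genes are called the chromosome 6, chromosome 13 and chromosome 14 copies below.

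Nitrate reductase is the cytosolic enzyme that reduces nitrate to nitrite with electrons from NADH or NADPH. Electrons pass through FAD, a haem of the cytochrome b5 type and a molybdenum cofactor, and the nitrite formed is then reduced to ammonium in plastids by nitrite reductase. In plants the transcripts are known to rise with nitrate and with sugars and to follow a daily rhythm, and the enzyme is also switched off by phosphorylation and binding of 14-3-3 proteins. Legume roots take up nitrate from the soil solution and reduce part of it before export to the shoot.

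The 4 RNA-seq libraries were made from root RNA, with 2 biological replicates per genotype: the wild type (WT) and a transgenic line in which GmHAD1-2 was suppressed (Ri in the labels). Both genotypes had spent 12 days in nutrient solution with KH2PO4, given as 250 mM, a unit that may be a misprint of a lower one. The nitrogen supply, the hour of harvest, the construct and its promoter, the number of independent lines and the plants per library are not stated in the labels or the design text. Without gene names neither the suppression of GmHAD1-2 nor the labelled tissue could be checked against marker genes, and the other genes of nitrate uptake and assimilation could not be identified.

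The libraries held 10077854 to 11070260 expected counts, the estimated number of fragments per gene. The Ri replicates differed from each other more than the WT replicates did. Over the 20253 genes of at least 8 CPM (counts scaled to library size, with TMM factors), the SD of the log2 difference between replicates was 0.58 in Ri and 0.31 in WT. Ri replicate 1 stood apart in number of genes as well, with 2747 genes listed in no other library against 437 to 654 in each of the others. Results on the nitrate reductases are therefore given with and without it.

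The chromosome 6 and chromosome 13 copies were among the abundant transcripts of these roots, and the chromosome 14 copy was at or near 0. Neither abundant copy passed the test between Ri and WT. Both were lowest in Ri replicate 1, while Ri replicate 2 lay between the WT replicates. The chromosome 6 copy was the more variable of the pair. Its level was 71.4 FPKM in Ri replicate 1 and 263 FPKM or more in each of the other libraries. In RNA of a whole organ, fewer cells of a type that expresses a gene and less RNA of it per cell cannot be told apart.

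The chromosome 6 copy was at 263 and 439 FPKM in WT replicates 1 and 2 and at 71.4 and 358 FPKM in Ri replicates 1 and 2. FPKM, the authors' unit, is fragments per kilobase of transcript, scaled to depth, so that copies of unequal length can be compared. The WT mean was 351 FPKM ± 124 (SD, n = 2) and the Ri mean 215 FPKM ± 203 (SD, n = 2). The genotypes overlapped, since the higher Ri value lay above the lower WT value. These levels rest on 8912, 14842, 2279 and 12570 expected counts in the same order, and the exact 95% Poisson interval of the lowest, 68.5 to 74.3 FPKM, covers counting error only. By level it was the 191st, 91st and 131st gene of both WT libraries and Ri replicate 2, in that order, and the 1358th of the 44830 listed genes in Ri replicate 1.

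The chromosome 13 copy was at 331 and 471 FPKM in WT replicates 1 and 2 and at 152 and 394 FPKM in Ri replicates 1 and 2. Its WT mean was 401 FPKM ± 98.7 (SD, n = 2) and its Ri mean 273 FPKM ± 171 (SD, n = 2). The genotypes overlapped here too, and again the lowest library was Ri replicate 1. The values rest on 10753, 15241, 4653 and 13233 expected counts. The gene ranked 141st, 83rd and 113th by level in the WT libraries and Ri replicate 2, in that order, and 492nd in Ri replicate 1.

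The chromosome 14 copy was not listed in either WT library or in Ri replicate 2, which was taken as 0, and it had 6 expected counts (0.21 FPKM) in Ri replicate 1. By the exact 95% Poisson interval, a count of 0 allows up to 3.69 counts. The floor used here, 3 counts, was 0.0957 to 0.0991 FPKM in those 3 libraries. The exact 95% Poisson interval of the 6 counts ran from 2.20 to 13.1 counts, or 0.0771 to 0.457 FPKM. All 6 counts lie in 1 library of 1 genotype, and the other Ri library had 0, so they say nothing of the spread between samples. In Ri replicate 1 the chromosome 6 and chromosome 13 copies stood 340 and 726 times higher per length. Ri replicate 1 is also the library with the 2747 genes found nowhere else, of which the chromosome 14 copy is one. These genes had a median of 2 expected counts, and 420 of them (15.3%) had at least 6. The part of that excess in the 6 counts was not tested.

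**Figure D1:**
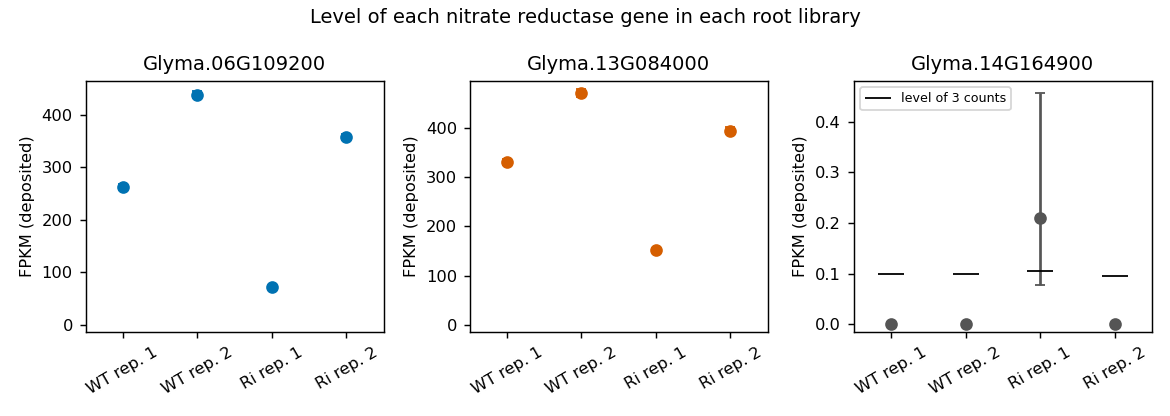
Deposited FPKM (y axis, linear) of the 3 nitrate reductase genes in each of the 4 libraries (x axis), 1 point per library, with exact 95% Poisson intervals that cover counting error only (no interval is drawn at 0). The abundant copies are lowest in Ri replicate 1, at 71.4 and 152 FPKM, and Ri replicate 2 lies between the WT replicates; the chromosome 14 copy is at 0.21 FPKM or 0, with dashes for the level of 3 counts.

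Summed over the 3 genes, the nitrate reductase level was 594 and 910 FPKM in WT replicates 1 and 2 and 224 and 753 FPKM in Ri replicates 1 and 2. The sum therefore varied within each genotype, and most in Ri. The mean was 752 FPKM ± 223 (SD, n = 2) in WT and 488 FPKM ± 374 (SD, n = 2) in Ri. The genes took 0.184% and 0.282% of all expected counts in the WT libraries and 0.0688% and 0.233% in the Ri libraries.

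The chromosome 13 copy was the higher of the abundant pair per length in 4 of 4 libraries. It stood 1.26-fold above the chromosome 6 copy in WT replicate 1, 1.07-fold in WT replicate 2, 2.14-fold in Ri replicate 1 and 1.10-fold in Ri replicate 2. The mean log2 ratio of the chromosome 6 to the chromosome 13 copy was -0.42 ± 0.46 (SD, n = 4), so the mean was smaller than the spread between libraries. The exact two-sided sign-flip permutation test gave p = 0.125, the smallest that 4 libraries allow. Without Ri replicate 1 the mean log2 ratio was -0.19.

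The balance of the copies varied between libraries, most in Ri replicate 1. The chromosome 6 copy made up 44.2%, 48.2% and 47.6% of the summed level in the WT libraries and Ri replicate 2, and 31.9% in Ri replicate 1. Of the expected counts of the pair in Ri replicate 1, 32.9% fell on the chromosome 6 copy (exact 95% binomial interval 31.8% to 34.0%). In the other libraries this share was 45.3% (44.6% to 46.0%), 49.3% (48.8% to 49.9%) and 48.7% (48.1% to 49.3%) in the same order. The intervals of Ri replicate 1 and of WT replicate 1 overlapped with no other, those of WT replicate 2 and Ri replicate 2 overlapped, and all cover counting error only, not the spread between root samples. Between genotypes the log2 ratio was -0.22 ± 0.16 (SD, n = 2) in WT and -0.62 ± 0.68 (SD, n = 2) in Ri. The difference of -0.40 did not exceed the spread in Ri, with an exact two-sided permutation p of 0.667 where 0.333 is the smallest that 2 libraries against 2 allow. Expected counts of the pair were not all whole, as arises when fragments that match several genes are divided among them. Within 0.005, the chromosome 6 copy was whole in WT replicate 1 and Ri replicate 2, and the chromosome 13 copy in no library. Whether the copies shared fragments with each other or with other genes was not tested. A fractional part does not give the number of divided fragments, so the uncertainty this adds to the split is not known.

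**Figure D2:**
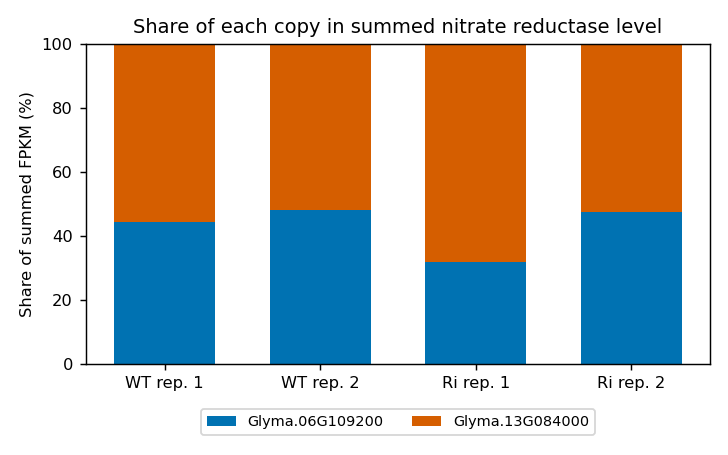
Share of the summed nitrate reductase FPKM (y axis, percent) held by the chromosome 6 copy (lower bars) and the chromosome 13 copy (upper bars) in each library. The chromosome 6 copy holds 44.2% to 48.2% in 3 libraries and 31.9% in Ri replicate 1; the chromosome 14 copy, at most 0.0938%, is not drawn.

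The comparison of the genotypes asks whether nitrate reductase transcripts differ in roots of the line labelled as suppressed for GmHAD1-2. Of the 3 genes, the chromosome 6 and chromosome 13 copies passed the filter on low counts and were tested, and the chromosome 14 copy did not. In edgeR's quasi-likelihood test across 34151 genes, 0 of the 2 copies were called at a Benjamini-Hochberg adjusted p under 0.05, where 0.117% of all tested genes were called. At an unadjusted p under 0.05 the number was also 0 of 2, where 6.25% of all tested genes lay, and DESeq2, which called 0.925% of all genes, and limma-voom, which called 0%, called 0 of 2.

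For the chromosome 6 copy the log2 fold change of Ri against WT was -0.75 ± 0.73 (standard error) (edgeR adjusted p = 0.915). Its 95% interval ran from -2.57 to 1.07, which spans a 5.93-fold decrease and a 2.11-fold increase. The chromosome 13 copy had a log2 fold change of -0.58 ± 0.49 (standard error) (edgeR adjusted p = 0.907). Its interval from -1.76 to 0.60 spans a 3.40-fold decrease and a 1.51-fold increase. The median log2 fold change of all tested genes was 0.016. The libraries thus left room for changes of these sizes in either direction, and they do not show that the genotypes were alike.

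The estimate turned on which Ri library was used. With Ri replicate 1 left out, the estimates on the log2 scale were -0.019 (95% interval -0.76 to 0.72) for the chromosome 6 copy and -0.072 (-0.79 to 0.65) for the chromosome 13 copy, with edgeR adjusted p of 0.987 and 0.953. Without Ri replicate 2 they were -2.28 (-3.13 to -1.42) and -1.37 (-2.12 to -0.63), with edgeR adjusted p of 0.0045 and 0.0368. In these fits the lone Ri library is assumed to vary like the WT libraries. Both copies passed only in the fit that keeps Ri replicate 1 as the single Ri library, in which 4.57% of all tested genes passed, against 5.65% in the fit that keeps Ri replicate 2. Leaving out WT replicate 1 or WT replicate 2 gave log2 fold changes of -1.10 and -0.28 for the chromosome 6 copy and -0.85 and -0.26 for the chromosome 13 copy, and neither passed.

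**Figure D3:**
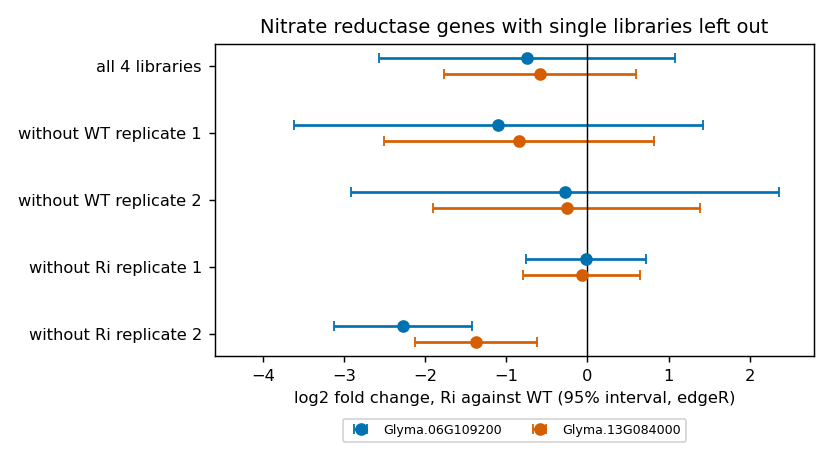
Log2 fold change of Ri against WT (x axis) with 95% intervals from edgeR for the chromosome 6 copy (blue) and the chromosome 13 copy (orange), with all 4 libraries and with each library left out in turn (rows). The estimates are -0.019 and -0.072 without Ri replicate 1 and -2.28 and -1.37 without Ri replicate 2.

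Set against all genes, the gap between the Ri replicates was wide for both copies. On the scale of log2(CPM + 0.5), Ri replicate 2 exceeded Ri replicate 1 by 2.25 for the chromosome 6 copy, a 4.75-fold difference. Of the 20253 genes of at least 8 CPM, 111 (0.548%) were higher in Ri replicate 2 by as much, this copy included, and 142 (0.701%) differed by as much in either direction. For the chromosome 13 copy the difference was 1.29 or 2.45-fold, which 521 genes (2.57%) reached in that direction and 689 (3.40%) in either. Among the 559 genes of at least 200 CPM, 4 reached the difference of the chromosome 6 copy in either direction, and 28 (5.01%) that of the chromosome 13 copy, 11 of them in the same direction.

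The WT replicates also differed at these genes. WT replicate 2 exceeded WT replicate 1 by 0.80 for the chromosome 6 copy, a 1.74-fold difference reached by 146 (0.721%) of the genes of at least 8 CPM in that direction and by 322 (1.59%) in either. For the chromosome 13 copy it was 0.57 or 1.48-fold, reached by 465 genes (2.30%) in that direction and by 1136 (5.61%) in either. Both copies thus had more spread than most genes within WT too, and in both genotypes replicate 2 was the higher. Nothing in the labels says that libraries of the same number share a batch.

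**Figure D4:**
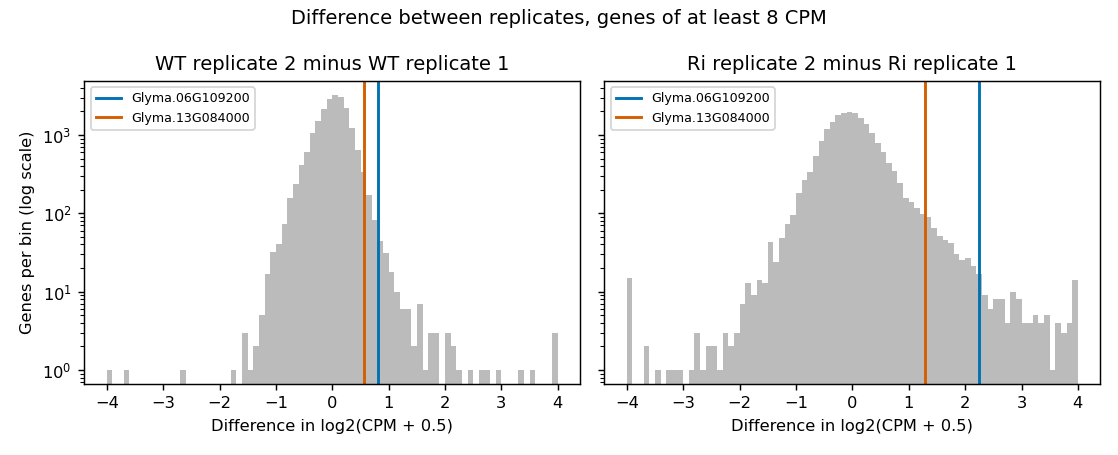
Number of genes (y axis, log scale) by the difference in log2(CPM + 0.5) between replicate 2 and replicate 1 (x axis; differences beyond 4 in either direction are drawn in the outermost bins), for WT on the left and Ri on the right, over 20253 genes of at least 8 CPM. Vertical lines mark the chromosome 6 copy, at 0.80 and 2.25, and the chromosome 13 copy, at 0.57 and 1.29.

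Both copies ordered the libraries in the same way, from Ri replicate 1 through WT replicate 1 and Ri replicate 2 to WT replicate 2. This order was shared by 485 (2.39%) of the 20253 genes. Ri replicate 1 was the lowest library for 5557 (27.4%) of them. The step from Ri replicate 1 to the next lowest library was 3.52-fold for the chromosome 6 copy, and 37 genes (0.183%), this copy included, had a step at least as large. For the chromosome 13 copy it was 2.08-fold, which 186 genes (0.918%) reached.

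The genes most like the copies were sought over the 4 libraries by the Euclidean distance between profiles of log2(CPM + 1) centred on their own mean, among tested genes of at least 8 CPM. The chromosome 13 copy was at a distance of 0.80 from the chromosome 6 copy, and 16 of 20246 other genes were nearer to the chromosome 6 copy than that. Seen from the chromosome 13 copy, 577 genes (2.85%) were nearer than the chromosome 6 copy. The gene nearest to the chromosome 6 copy was Glyma.17G065100.Wm82.a2.v1, at a distance of 0.36, with 24.4 and 36.3 FPKM in WT replicates 1 and 2 and 7.03 and 40.9 FPKM in Ri replicates 1 and 2. It was lowest in Ri replicate 1 as well, but its highest library was Ri replicate 2. The gene nearest to the chromosome 13 copy was Glyma.18G153800.Wm82.a2.v1, at a distance of 0.21, with 90.4 and 145.6 FPKM in WT and 50.6 and 119.3 FPKM in Ri, in the same library order as that copy. For the chromosome 14 copy, whose profile rests on 6 counts in 1 library, the nearest was Glyma.15G046800.Wm82.a2.v1, at 0.03. That gene was expressed in every library, at 11.26 and 11.05 FPKM in WT and 17.95 and 11.36 FPKM in Ri. The offset in log2(CPM + 1) flattens a profile as low as that of the chromosome 14 copy, so the small distance does not show a like pattern. With 4 libraries these distances describe the samples at hand, and no gene name goes with these identifiers in the sources used here.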

How the data were processed

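Each library has its own deposited table, in which a gene has a length, an expected count and FPKM, per the file headers. The deposited expected counts are estimated fragments per gene, not normalized. FPKM values were scaled by length and depth by the authors. The submitters' processing notes list Bowtie2, HISAT and RSEM; roles, versions, filters and strand setting were not given in the sources used here. A gene missing from a table was taken as 0.

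Expected counts were rounded and tested with edgeR 4.0.16 (R 4.3.3; quasi-likelihood F-test, robust, TMM, default filter, genotype as the only term), with Benjamini-Hochberg adjustment over 34151 genes. Standard errors are the fold change divided by the root of F. DESeq2 1.42.0, limma 3.58.1, other scalings and filters, a replicate block and leaving out libraries were alternatives, and the fits were tested on simulated data. Replicates are called biological in the series' design text. All 3 members were named, with the 1 most alike gene for each. The 21 gene lists by product name, pathway genes and tissue markers, were not tested, since identifiers could not be tied to names. Members, taken by identifier, and lists were chosen with earlier results of these data known. Intervals and floors (3 counts, or 0.264 to 0.306 CPM) cover counting error only.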

Additional observations from a re-analysis of the deposited data

How the results depend on the processing

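The log2 fold changes of both abundant copies stayed below 0 in 11 of 11 fits with all libraries and no block, from -1.12 to -0.70 for the chromosome 6 copy and from -0.71 to -0.55 for the chromosome 13 copy, with adjusted p of at least 0.892. With 1 library left out they ran from -2.28 to -0.019 and from -1.37 to -0.072, and of these fits both passed only without Ri replicate 2. The log2 ratio of the copies ran from -0.52 to -0.19. The number of genes called among all tested was 40, and it was 48 with DESeq2 size factors, 12 with upper-quartile factors, 316 in DESeq2's own test, 164 without a filter, 6 with the stricter filter (10 CPM in 2 libraries) and 13 without robust estimation. It was 0 in edgeR with library totals (2131 genes at an unadjusted p under 0.05), in limma-voom (2062) and in limma on log2(FPKM + 1) (2212) or log2(FPKM + 0.1) (2191). With 1 library left out it ran from 0 (without WT replicate 1 or 2, where 795 and 991 genes had an unadjusted p under 0.05) to 1994. For these counts the cause was not tested. A replicate block in edgeR gave 107 calls, and the copies, with log2 fold changes of -1.09 and -0.70, did not pass. Equal numbers were not treated as pairs, because the labels name no shared batch. Across the 20253 genes of at least 8 CPM, the replicate differences of the genotypes had a correlation of -0.31. Both copies were higher in replicate 2 of each genotype, and whether any libraries shared a batch was not tested. Crossing the numbers of the block, an alternative chosen after seeing the data, gave 68 calls. The chromosome 14 copy entered only the edgeR fit without a filter (adjusted p 0.896), so its fold change and its ratios to the other copies have no alternatives. Depth limits genes below about 0.3 CPM.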

Other observations

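The genes with the next lower and next higher identifiers were all at lower levels than the abundant copies. Beside the chromosome 6 copy, the lower-numbered gene had at most 1 expected count in any library and the higher-numbered gene was at 4.54 and 3.59 FPKM in WT and 2.43 and 4.87 FPKM in Ri. Beside the chromosome 13 copy, the lower-numbered gene was at 0.07 to 0.19 FPKM, and the higher-numbered gene was even over the libraries, at 15.5 and 16.5 FPKM in WT and 15.8 and 15.7 FPKM in Ri. Beside the chromosome 14 copy, the lower-numbered gene was listed in Ri replicate 1 only, with 3 expected counts. It is 1 of the 2747 genes listed in that library only. The higher-numbered gene had 57.9 and 47.8 expected counts in WT and 14 and 208 in Ri, so that Ri replicate 1 was its lowest library and Ri replicate 2 its highest. None of the 3 neighbours that were tested passed (edgeR adjusted p 0.919 to 0.989).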
